A study of Drosophila melanogaster with 28 samples.

Results

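The 200 transcripts described here carried the most ribosome footprints for their RNA level in wild-type (WT) testis of Drosophila melanogaster. They were taken from 18851 transcripts that were kept after near-equal neighbours in the deposited lists had been dropped. Levels are in CPM, the counts of a transcript scaled to the total of its library. A transcript was eligible with a mean RNA-seq level of 20 CPM or more in the 2 WT testis replicates of set 1, which 7594 transcripts reached. The members are the 200 eligible transcripts (2.63%) with the highest ratio of mean footprints to mean RNA, with 1 CPM added to both. Members were thus chosen by their footprint and RNA values in set 1 WT testis, which are given here as a description with no test.

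The series compared WT males with males lacking Mettl1 by ribosome profiling and RNA-seq in 28 libraries, in 14 groups of 2 replicates. Testis was covered by 2 sets of samples, called set 1 and set 2 after their titles, each with WT and knockout (KO) groups. Body samples covered WT and the knockout lines labelled KO1 and KO2. Per the labels' protocol, WT was y1 w1118 and the knockout testes were Mettl1KO1, from adults aged 2 to 3 days, dissected in 100 µg/ml cycloheximide with 600 pairs of testes pooled per sample. That text is attached to the samples of both sets and of body alike, and it names no other line, so the line of the set 2 knockout and the age and pooling of the body samples rest on no statement of their own. WT samples carry the treatment label CT and knockout samples Mettl1-KO, with no agent named besides cycloheximide. The digit after the genotype in testis titles was read as a replicate number, whereas in body titles it names the line. If it names the line in testis too, the spread of the knockout replicates includes a difference between lines. Testes were used whole, so a lower level can come from fewer cells of a type or from less RNA per cell, and these cannot be told apart.

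A translating ribosome shields a short piece of mRNA from nuclease. Ribosome profiling reads these pieces, called footprints, and their number per unit of mRNA is commonly used as a measure of translational efficiency. In the fly testis many transcripts are made in spermatocytes and stored, and are translated later as spermatids differentiate. Mettl1 is the catalytic subunit of the enzyme that places 7-methylguanosine in the variable loop of a subset of tRNAs, a modification known to protect those tRNAs and to support decoding. The files identify transcripts by FlyBase number and do not pair them with gene names. No member matched the reference gene tables, so roles, the Mettl1 transcript and testis or body marker genes were not analysed here, and neither the tissue nor the genotype labels were checked against them.

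Depth set what could be tested. Over the kept transcripts, RNA-seq libraries of set 1 held 11486631 to 17707128 counts, those of set 2 held 149745 to 209202, and body libraries 49608 to 95749. For footprints, set 1 libraries held 410019 to 3386070 counts, set 2 libraries 6732034 to 13217075, and body libraries 2033209 to 9936190. RNA-seq of the sets also ranked transcripts differently. Across the 7594 eligible transcripts, Spearman's rho between mean WT levels of set 1 and set 2 was 0.913 for footprints and 0.449 for RNA-seq, and within set 2 WT it was 0.239 between the assays, against 0.736 within set 1 WT. These are descriptions across transcripts, which are not independent replicates. The labels do not say whether the RNA-seq counts of set 2 and body cover all reads of those libraries.

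In set 1 knockout testis the replicates of the assays were at odds. Of the members, 36 had footprints more than 2-fold higher in replicate 1 than in replicate 2, and 37 had RNA more than 2-fold higher in replicate 2 than in replicate 1. As many as 35 did both, and 0 did the opposite. The 35 were set apart by their set 1 knockout values, so their levels there are a description. Replicate differences in footprints and RNA correlated at -0.92 (Pearson) and -0.67 (Spearman) across the 200 members, and at -0.74 and -0.33 across the eligible transcripts. The same double shift was found in 211 eligible transcripts, members included. The labels do not say whether equal replicate numbers of the assays mark the same pool of testes. In WT of set 1, 5 members, chosen after their values were seen, were more than 2-fold higher in replicate 2 in both assays. All 5 had higher footprints in body than in set 2 testis, with 551 to 3584 CPM in WT body and at most 108 CPM in set 2 WT testis. Of the 35 members with the replicate shift in knockout, 25 had higher WT footprints in set 2 testis than in body, and 10 had higher in body. Among the other 165 members, 76 were higher in testis, 66 were higher in body and 23 differed without passing the test. Whether tissue other than testis was present in the set 1 samples was not tested. The main values that rest on set 1 knockout libraries are given by replicate or with the 35 set apart from the other 165.

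**Figure D1:**
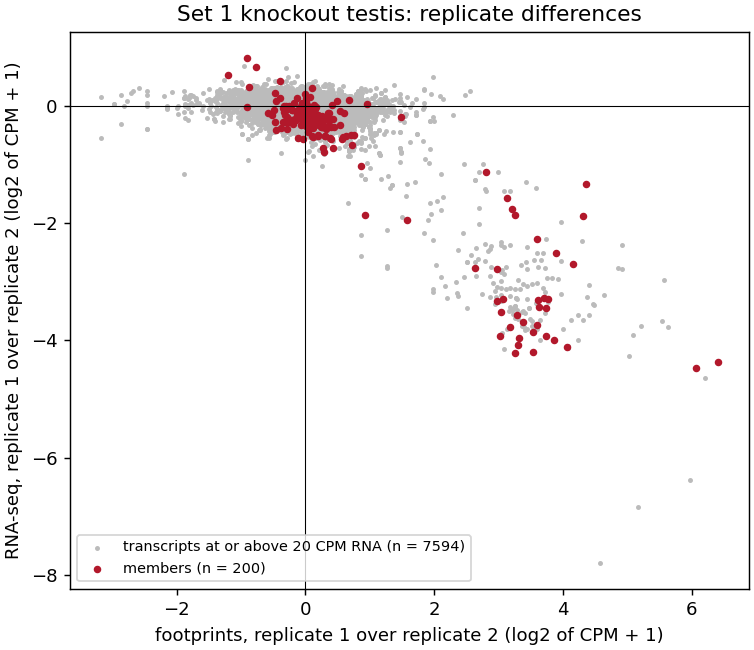
Difference between replicates 1 and 2 of set 1 knockout testis for footprints (horizontal, log2 of CPM + 1) and RNA-seq (vertical, log2 of CPM + 1), with 1 point per transcript. Red points are the 200 members and grey points the 7594 eligible transcripts. The 35 members with higher footprints in replicate 1 and higher RNA in replicate 2 form the lower right group.

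In set 1 WT testis the members' median footprint level was 200 CPM, with quartiles of 125 and 508 and a range of 62.4 to 15866. Their median RNA level was 54.7 CPM (20.1 to 4824), close to the 56.7 CPM of all eligible transcripts, whose median footprint level was 49.3 CPM. The members thus lay above the other transcripts in footprints at a similar RNA level in CPM, which is not scaled to length. The members' ratio had a median of 3.41, quartiles of 3.07 and 4.17 and a maximum of 14.6, against an eligible median of 0.827. The limit fell in a dense stretch of values. FBtr0302230, just inside, had 125 CPM of footprints and 43.4 CPM of RNA, a ratio of 2.83. FBtr0340343, just outside, had 253 and 89.0 CPM, which also rounds to a ratio of 2.83.

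**Figure D2:**
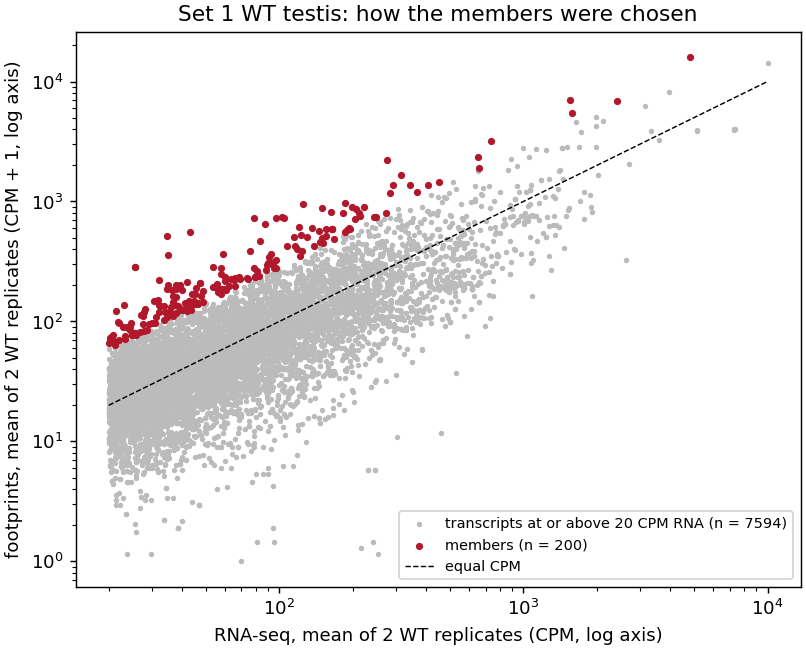
Mean footprint level (CPM + 1) against mean RNA-seq level (CPM) in the 2 WT replicates of set 1 testis, both on log axes, with 1 point per transcript and a dashed line at equal CPM. The 200 members (red) lie at the upper edge of the 7594 eligible transcripts (grey). Their RNA levels reach 4824 CPM, and those of the eligible transcripts 10012 CPM.

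The highest ratios belonged to FBtr0088315 and FBtr0088261, both with a length value of 211. FBtr0088315 had 519 CPM of footprints for 34.7 CPM of RNA and a ratio of 14.6. FBtr0088261 had 559 CPM for 43.0 CPM and a ratio of 12.7. FBtr0088259, also with a length value of 211, had 721 CPM for 105 CPM of RNA and a ratio of 6.82. Whether these transcripts share reads is not given in the sources used here. In all, 13 members fell into 6 shared count profiles, the largest of 3 members, so the 200 members held 193 distinct profiles. Of all 200 members, 104 each stood for at least 1 near-equal transcript that had been dropped.

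The members were short, a property the choice did not use. The deposited files give 1 length value per transcript, of unstated unit. Its median was 249 for the members (quartiles 135 and 422, range 16 to 1575) and 494.5 for the eligible transcripts (quartiles 276 and 868, range 12 to 18431). With the eligible transcripts cut by length at their quartiles, the shortest class (12 to 276) held 115 members (57.5%). The second class held 59, the third 19 and the longest, from 869 up, 7. Values below 100 were found for 32 members (16.0%) and 3.61% of eligible transcripts, and values below 50 for 11 members (5.50%) and 0.593%. The ratio itself ran with length across all eligible transcripts, whose median ratio was 1.10 in the shortest class and 0.906, 0.787 and 0.634 in the longer ones. Among the 200 members, log2 ratio and log2 length correlated at -0.23 (Pearson) and -0.27 (Spearman), beside the -0.26 and -0.29 of the eligible transcripts. The ratio is that of the libraries that chose the members.

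**Figure D3:**
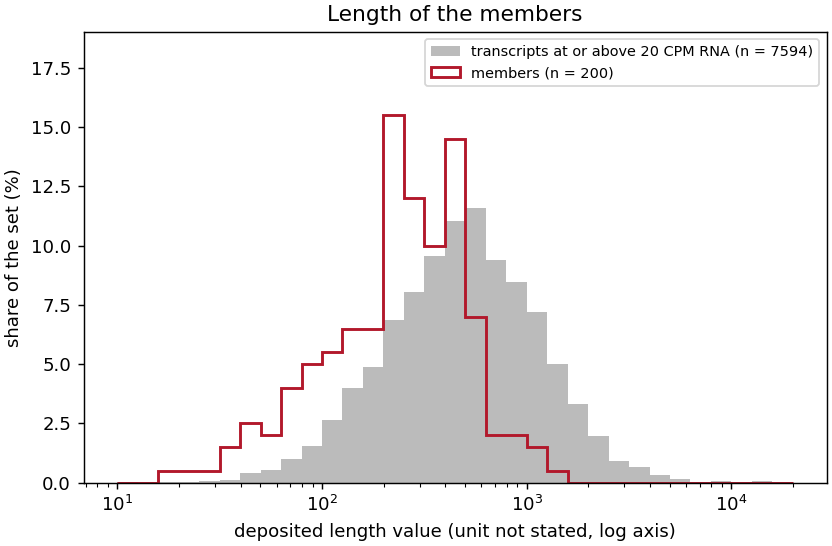
Distribution of the deposited length value (log axis, unit not stated) for the 200 members (red outline) and the 7594 eligible transcripts (grey bars), as a percentage of each set. The members' distribution lies to the left, with a median of 249 against 494.5.

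High footprint levels were also found in libraries that had no part in the choice. In set 2 WT testis the members' median was 212 CPM against 52.5 CPM for eligible transcripts, and in WT body 163 CPM against 19.99 CPM. In set 2 WT testis, per 100 length units, it was 95.6 CPM against 11.3 CPM for eligible transcripts. On that scale the members' RNA was also higher in set 1 WT, whose libraries chose them, with medians of 23.6 against 13.0 CPM. In the shallow RNA-seq of set 2 WT it was lower, at 2.87 against 3.80 CPM. WT footprints of set 2 lay within 2-fold of those of set 1 for 170 members, were more than 2-fold lower for 25 and more than 2-fold higher for 5. The median log2 difference, set 2 over set 1, was -0.08 for members and 0.13 for eligible transcripts, of which 91.3% lay within 2-fold. Per 100 length units, the members' median in set 2 knockout testis was 83.7 CPM. In body it was 74.1 CPM in WT, 72.8 CPM in KO1 and 77.9 CPM in KO2. The eligible transcripts had medians of 11.6 CPM in set 2 knockout testis and 3.13, 2.86 and 2.85 CPM in body.

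As a share of all footprint counts, the members took 10.7% ± 1.24 (SD, n = 2) in WT and 10.02% ± 1.11 (SD, n = 2) in knockout testis of set 1. In set 2 the shares were 8.53% ± 0.449 (SD, n = 2) in WT and 8.62% ± 0.641 (SD, n = 2) in knockout. In body they were 10.02% ± 0.748 in WT, 9.63% ± 0.0567 in KO1 and 10.04% ± 0.0613 in KO2 (SD, n = 2 each). WT and knockout replicates overlapped in each testis set and in body, for KO1 as for KO2. The RNA-seq share differed more. It was 2.85% ± 0.0157 in WT and 1.52% ± 0.223 in knockout of set 1 (SD, n = 2 each), where both knockout libraries, at 1.36% and 1.68%, lay below both WT libraries, at 2.86% and 2.84%. In set 2 the RNA-seq share was 0.434% ± 0.0275 in WT and 0.393% ± 0.00468 in knockout (SD, n = 2 each). In body it was 0.757% ± 0.0248 in WT, 0.810% ± 0.0409 in KO1 and 0.836% ± 0.0642 in KO2 (SD, n = 2 each). These shares were not tested.

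**Figure D4:**
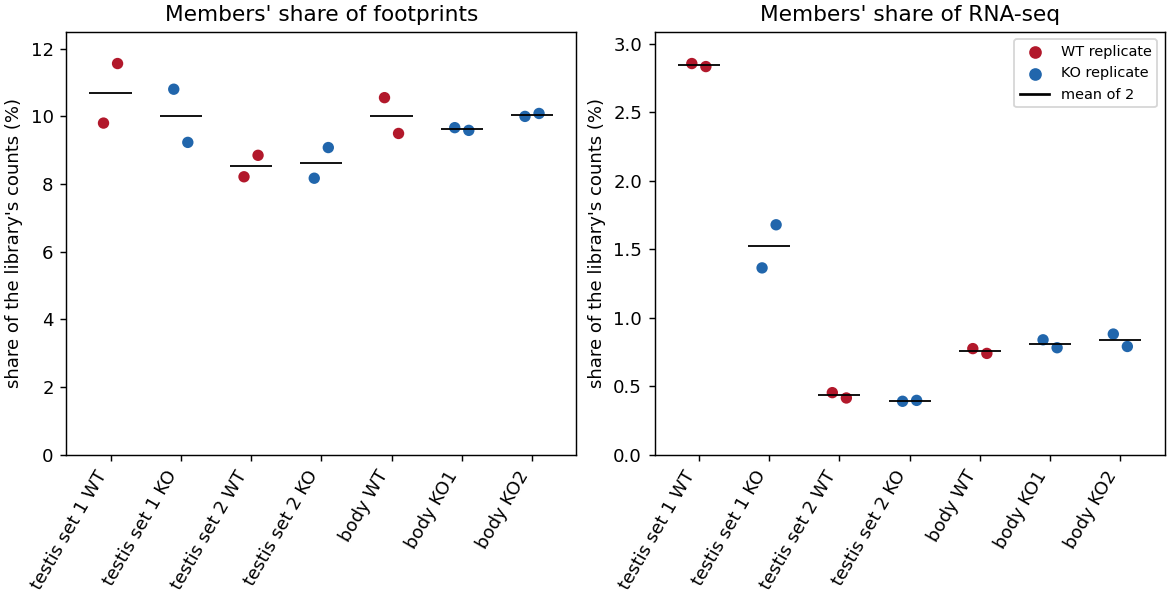
Share of each library's counts taken by the 200 members, for footprints (left) and RNA-seq (right), in percent, with 1 point per replicate and a line at the mean of 2. Footprint shares lie between 8.17% and 11.6% in all groups, and RNA-seq shares are highest in set 1 WT testis.

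High footprints for the RNA level were found again in knockout testis of set 1, whose libraries the choice did not use. The fit of footprints against RNA-seq there called 163 of 199 members higher and 0 lower, in edgeR's quasi-likelihood test with a Benjamini-Hochberg adjusted p under 0.05. Of all 14915 transcripts tested, 20.1% were called higher and 23.5% lower. The members' median log2 ratio of footprints to RNA was 2.13 (quartiles 1.83 and 2.47), against 0.00 over all tested transcripts and -0.28 over eligible ones, and 198 of 199 members were above 0. All 163 calls lay among the 165 members without the replicate shift, and 0 of the 34 tested with the shift were called. These 34 had been picked by the gap between these replicates, and their calls turned on the pairing of the libraries. With a crossed replicate block, chosen after seeing the data, 32 of the 34 and 163 of the other 165 were called higher. By pairs of libraries, the members' median log2 ratio was 2.76 for replicate 1 of both assays and 2.16 for replicate 2 of both. Pairing footprint replicate 1 with RNA replicate 2 gave 2.39, and the reverse pairing gave 2.52.

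The ratio, computed as for the choice, was higher in knockout than in WT of set 1. Its median was 5.45 in knockout (quartiles 4.45 and 6.82, range 1.32 to 23.8), and 187 of 200 members were above their own WT ratio. By pairs of libraries, 187 were above it for replicate 1 of both assays and 145 for replicate 2 of both, where the lowest log2 ratio was -3.54. Pairing footprint replicate 1 with RNA replicate 2 gave 180, and the reverse pairing 177. Of the 35 members with the replicate shift 33 were above it, with a median ratio of 5.61, and of the other 165 members 154, with a median of 5.44. This was not particular to the members, since 5737 of 7594 eligible transcripts were above theirs, and the WT values are those that chose the members. Choosing 200 transcripts in the same way from set 1 knockout gave 114 of the members again, 57.0% of each list. In that choice 131 of the members were eligible, and their median rank was 75 of 6814.

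In set 2 and in body the same test gave counts as high, on RNA-seq too shallow to measure most members. Footprints over RNA-seq were called higher for 185 and lower for 2 of 200 members in set 2 WT testis, where 36.8% of 14418 transcripts were called higher and 21.1% lower. In set 2 knockout testis 180 were higher and 3 lower, against 34.4% and 21.4% of 14949. In WT body 171 of 190 members were higher and 1 lower, against 39.1% and 16.5% of 12606. Of the eligible transcripts tested, 54.7% were higher and 11.9% lower in set 2 WT, and 53.1% and 12.2% in set 2 knockout. In WT body they were 46.0% and 12.8%. These are calls of edgeR's quasi-likelihood test with a Benjamini-Hochberg adjusted p under 0.05. RNA-seq held no count of 39 members in either library of set 2 WT, of 41 in set 2 knockout and of 76 in WT body, and 10 or more counts of 25, 26 and 24. With RNA set to at least 3 counts over the 2 libraries of a group, the members' median log2 ratio was at least 4.25 in set 2 WT, 4.29 in set 2 knockout and 2.21 in WT body. The eligible transcripts had at least 1.44, 1.44 and -0.98 on the same scale. In WT body, RNA held 3 counts or fewer for 145 of 200 members and 4719 of 7594 eligible transcripts. For these the ratio followed the footprint counts alone, whose medians over each whole set were 2165.5 for members and 286.5 for eligible transcripts. In set 2 WT, 125 members and 2440 eligible transcripts had RNA of 3 counts or fewer. In WT body the count higher was 96 without footprint replicate 1 and 104 without footprint replicate 2. The 200 highest ratios of set 2 WT shared 16 transcripts with the members (8.0% of each list), and those of WT body 31 (15.5%), but only 35 and 79 members reached the RNA level of 20 CPM there.

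In knockout testis of set 1 most members had less RNA than in WT. The members' median log2 change in RNA, knockout over WT, was -0.83 (range -4.65 to 1.15), against -0.16 for eligible transcripts. Both knockout replicates lay below both WT replicates for 167 members (83.5%) and above them for 18. The same held for 46% and 25% of all kept transcripts, and for 55.3% and 29.9% of eligible transcripts. RNA was more than 2-fold lower for 89 members (44.5%, against 7.91% of eligible transcripts) and more than 4-fold lower for 43 (21.5%, against 2.67%). Footprints changed less, with a median log2 change of -0.17 against 0.18 for eligible transcripts. Both knockout replicates were lower in footprints for 97 members (48.5%) and higher for 54 (27%). The same held for 18.3% and 29.3% of all kept transcripts, and for 23.3% and 40.6% of eligible transcripts. Footprints were more than 2-fold lower for 57 members (28.5%, against 9.30% of eligible transcripts). The median footprint change was -0.11 in knockout replicate 1 and -0.25 in replicate 2, with 5 and 38 members more than 4-fold below the WT mean. Among the 35 members with the replicate shift, both knockout replicates were lower in footprints for 32 and higher for 0, and among the other 165 for 65 and 54. These are descriptions, because the WT libraries are those that chose the members.

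Much of the steep loss lay in the 35 members with the replicate shift, which were picked by their values in these same knockout libraries. Their median footprint level was 428 and 472 CPM in the WT replicates of set 1, and 239 and 18.8 CPM in knockout replicates 1 and 2. Their median RNA level was 107 and 91.0 CPM in WT, and 1.75 and 25.4 CPM in knockout replicates 1 and 2. The knockout medians were thus low in all 4 libraries. They were far lower in footprint replicate 2 and RNA replicate 1, which follows in part from how the 35 were picked. RNA was more than 2-fold lower for all 35 and more than 4-fold lower for 29, with a median log2 change of -2.50. Among the other 165 members, the median log2 change was -0.62 for RNA and -0.00 for footprints, and 54 were more than 2-fold and 14 more than 4-fold lower in RNA. Over the 200 members, the median log2 change in RNA was -1.0 in knockout replicate 1 and -0.67 in replicate 2. Taken by single knockout replicate, RNA was more than 4-fold below the WT mean in both replicates for 16 members, in replicate 1 alone for 33 and in replicate 2 alone for 4. The eligible transcripts gave 71, 210 and 8.

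Set 2 shares no library with the choice, and there more members had lower than higher footprints in knockout testis. Of 200 members tested, 16 were called higher and 56 lower (28%), by edgeR's quasi-likelihood test with a Benjamini-Hochberg adjusted p under 0.05. Of all 15254 transcripts tested, 10% were called higher and 14.3% lower. The eligible transcripts gave 12.4% and 21.2%. The median member changed little, by -0.08 on the log2 scale (quartiles -0.43 and 0.19), and 166 members stayed within 2-fold. Called members had a median log2 change of 0.76 upward and -0.96 downward, and 6 of those called higher and 27 of those called lower changed at least 2-fold. The count called higher was 9 without WT replicate 1, 7 without WT replicate 2 and 32 without knockout replicate 1, and a crossed pairing of replicates gave 28.

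Of the 56 members that fell in set 2, 54 had RNA and 45 had footprints below WT in both knockout replicates of set 1, where 83.5% and 48.5% of all members did. The set 1 WT values are those of the choice. Their median log2 changes in set 1 were -1.21 for RNA and -0.56 for footprints. The 16 that rose were mixed in set 1, with RNA below WT in both replicates for 9 and above for 5. Of the 35 members with the replicate shift, 6 rose and 0 fell in set 2. Their median footprint level in set 2 was 199 and 190 CPM in WT and 420 and 492 CPM in knockout, with a median log2 change of 0.33. Of the other 165 members, 10 rose and 56 fell, with a median log2 change of -0.22. Across all 200 members, footprint changes of set 1 and set 2 correlated at 0.02 (Pearson) and 0.12 (Spearman), beside 0.56 and 0.54 across the eligible transcripts. The sets share no library, but the set 1 changes rest on the WT libraries of the choice.

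The largest fall in set 2 was that of FBtr0300942, with a length value of 209. Its footprints were 133 and 137 CPM in the WT replicates and 9.88 and 21.2 CPM in the knockout replicates of set 2. Both knockout values were far below WT, and the log2 change was -3.27 (SE 0.315, adjusted p = 0.000904, edgeR's quasi-likelihood test). In set 1 the order was the same, with footprints of 241 and 320 CPM in WT and 51.2 and 53.7 CPM in knockout. Set 1 RNA was 89.4 and 104 CPM in WT and 6.78 and 8.82 CPM in knockout. In body the order was the opposite. Footprints were 8.13 and 8.05 CPM in WT, 257 and 12.3 CPM in KO1 and 419 and 345 CPM in KO2. The log2 change in body was 4.06 in KO1 (adjusted p = 0.0303) and 5.61 in KO2 (adjusted p = 0.00388), by edgeR's quasi-likelihood test, and the KO1 replicates were far apart.

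Among members called lower, FBtr0078004, with a length value of 90, was the named transcript with the next largest fall. Its footprints in set 2 were 1220 and 1596 CPM in WT and 249 and 251 CPM in knockout, a log2 change of -2.63 (SE 0.161, adjusted p = 0.000267, edgeR's quasi-likelihood test). Set 1 gave 861 and 1029 CPM in WT and 317 and 247 CPM in knockout for footprints. Set 1 RNA was 129 and 120 CPM in WT and 10.4 and 11.4 CPM in knockout. Knockout footprints were lower in body as well. They were 37.9 and 41.0 CPM in WT, 8.64 and 11.7 CPM in KO1 and 4.89 and 5.41 CPM in KO2. The log2 changes were -1.90 in KO1 (adjusted p = 0.000322) and -2.93 in KO2 (adjusted p = 1.75e-05), by edgeR's quasi-likelihood test. The member FBtr0078003, with a length value of 98, had similar WT footprints in set 2, at 1200 and 1568 CPM, but fell less. Its knockout footprints there were 440 and 435 CPM, a log2 change of -1.80. Its set 1 RNA was 156 and 144 CPM in WT and 54.7 and 57.8 CPM in knockout. Whether it shares reads with FBtr0078004 is not given in the sources used here.

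Among members called higher, the largest rises were those of FBtr0089645 and FBtr0339240, with length values of 430 and 94. The largest log2 change of any member, 2.99, was not called. FBtr0089645 had 54.17 and 19.01 CPM of footprints in WT and 148 and 462 CPM in knockout of set 2. Its log2 change was 2.89 (SE 0.639, adjusted p = 0.0209, edgeR's quasi-likelihood test), and without WT replicate 2 it was 2.38 with an adjusted p of 0.0845. FBtr0339240 had 51.9 and 33.9 CPM in WT and 213 and 381 CPM in knockout, a log2 change of 2.64 (SE 0.318, adjusted p = 0.00206, edgeR's quasi-likelihood test). Both were higher in both knockout replicates of set 2, and both showed the replicate shift in set 1. There, footprints of FBtr0089645 were 407 and 212 CPM in WT and 224 and 12.5 CPM in knockout, and its RNA 109 and 73.6 CPM in WT and 1.64 and 44.4 CPM in knockout. Footprints of FBtr0339240 in set 1 were 169 and 119 CPM in WT and 127 and 0.895 CPM in knockout. In WT body their footprints were above those of both WT testis sets, and far above those of set 2, at 528 and 458 CPM for FBtr0089645 and 326 and 292 CPM for FBtr0339240.

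The members with the highest ratios fell slightly in set 2. FBtr0088315 had 822 and 888 CPM of footprints in WT and 689 and 741 CPM in knockout. FBtr0088261 had 872 and 942 CPM in WT and 730 and 784 CPM in knockout. The groups did not overlap for either, and the log2 change was -0.40 for each (adjusted p = 0.0414 and 0.0407, edgeR's quasi-likelihood test). RNA-seq of set 2 could be tested for 16 members, of which 1 was called higher and 4 lower in edgeR's quasi-likelihood test. Of all 2969 transcripts tested there, 10.1% were called higher and 10.2% lower.

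Between WT tissues the members split. Footprints of 101 members were higher in set 2 testis and those of 76 higher in body, with 23 not called, in edgeR's quasi-likelihood test with a Benjamini-Hochberg adjusted p under 0.05. Of all 16284 transcripts tested, 40.5% were called higher in testis and 41.7% higher in body. The eligible transcripts gave 60.3% and 24.8%. The log2 difference, testis over body, had a median of 0.41 and ran from -6.15 to 5.57. The testis-higher members had median footprints of 245 CPM in testis and 56.8 CPM in body, and a median length value of 211. The body-higher members had 159 CPM in testis and 583 CPM in body, and a median length value of 325. Thus 76 of the transcripts with the highest ratio in testis carried more footprints in body.

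The knockout changes of set 2 were also counted by tissue class. Of the 101 testis-higher members 4 rose (3.96%) and 30 fell (29.7%), beside 13.3% and 28.6% of eligible transcripts of the same class. Of the 76 body-higher members 12 rose (15.8%) and 17 fell (22.4%), beside 12.9% and 9.67% of eligible transcripts of that class. Of the 23 not called 0 rose and 9 fell (39.1%), beside 7.88% and 10% of eligible transcripts. The calls are those of edgeR's quasi-likelihood test, and no test of the difference between classes was made, since both comparisons use the WT testis libraries of set 2. The median log2 difference, testis over body, was 0.96 among the 56 members that fell and -2.42 among the 16 that rose. It was 0.41 over all 200 members and 0.97 over the eligible transcripts tested.

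**Figure D5:**
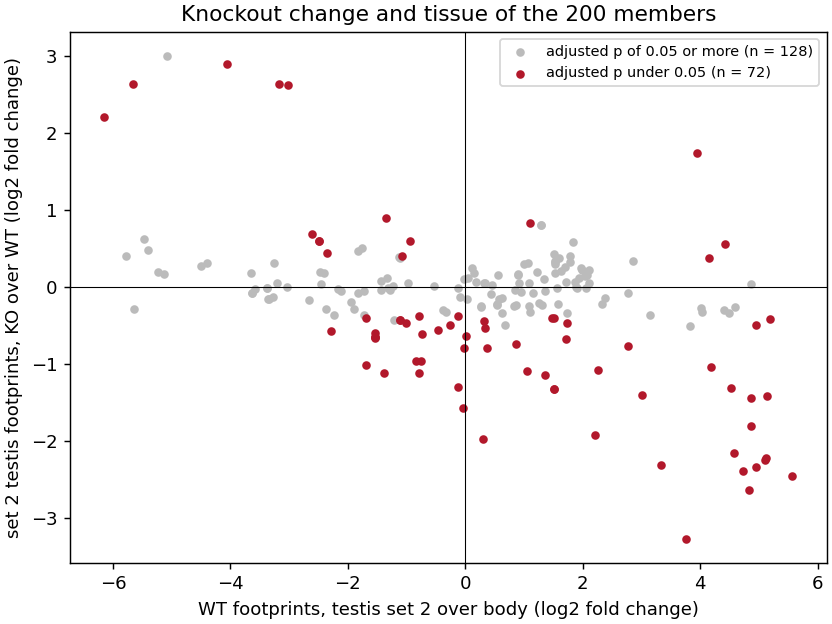
Log2 fold change of footprints in set 2 testis, knockout over WT (vertical), against the log2 fold change of WT footprints, set 2 testis over body (horizontal), for the 200 members. Red points have an adjusted p under 0.05 for the knockout change, and the axes share the WT testis libraries of set 2. The steepest falls, down to -3.27, are at the right, and the called rises above 2 are at the left.

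In body few members changed with the knockout. In KO1, 5 of 198 members were called higher and 12 lower, by edgeR's quasi-likelihood test with a Benjamini-Hochberg adjusted p under 0.05, against 1.02% and 2.13% of 13840 transcripts tested. In KO2, 5 were higher and 14 lower, against 1.71% and 2.86%. The eligible transcripts gave 0.362% and 3.33% in KO1, and 0.543% and 4.67% in KO2. The members' median log2 change was -0.06 in KO1 and -0.02 in KO2. The lines share their WT libraries. Of the members called in set 2 testis and in body, 9 of 11 had the same sign in KO1 and 13 of 16 in KO2, beside 196 of 206 and 296 of 304 eligible transcripts called in both tissues. Across 198 members, footprint changes of set 2 testis and of KO1 body correlated at 0.03 (Pearson) and 0.04 (Spearman). With KO2 body they correlated at 0.09 and 0.09. Across 6635 eligible transcripts the values were 0.45 and 0.24 with KO1, and 0.52 and 0.28 with KO2. For set 1 testis against body, the members gave 0.41 and 0.59 with KO1, and 0.23 and 0.41 with KO2. The eligible transcripts gave 0.58 and 0.40 with KO1, and 0.51 and 0.32 with KO2. The set 1 changes rest on the WT libraries of the choice. The body counts moved when any 1 of several libraries was left out. The body groups were fitted together, and the cause of these shifts was not tested. Members lower in KO1 numbered 3 without replicate 1 and 4 without replicate 2 of KO1, 5 and 4 without either WT replicate, and 39 and 38 without either KO2 replicate. Members higher in KO1 numbered 3 without either KO1 replicate, and 2 and 0 without either WT replicate. In KO2 they were 2 and 0 without either WT replicate and 11 without KO2 replicate 1. Members lower in KO2 numbered 7 without WT replicate 2 and 29 without KO2 replicate 1.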

How the data were processed

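The authors' deposited files hold whole-number counts per FlyBase transcript and 1 further value per transcript (unit not stated), used as a length. Per the submitters' processing notes, CASAVA 1.8 and STAR 2.7.0a were used with build dm6. The counter, annotation, strand use and treatment of shared reads are not given in the sources used here. Overlapping and near-identical transcripts are therefore uncertain. Per the labels' protocol, linker-ligated footprints were amplified through T7 transcription, and a SEQuoia Express kit was used for RNA-seq.

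Of 34703 transcripts listed, 4363 had no length value and 0 counts in all libraries. Of the other 30340, 11489 were dropped in file order because their summed counts over the 28 libraries lay within 5% of the last one kept. CPM were computed over the 18851 kept. The members and lists were chosen with earlier results of these data known. Identifiers were looked up in the reference gene tables, where 10 of 34703 matched a synonym and 0 of the members did.

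For all kept transcripts, R 4.3.3 and edgeR 4.0.16 gave the tests (quasi-likelihood test, TMM scaling, filterByExpr with a minimum count of 10, Benjamini-Hochberg adjustment within each of 9 comparisons, called at an adjusted p under 0.05), after the steps had been tested on simulated data. Footprints were set against RNA-seq within a group, or knockout against WT, or testis against body. Body groups were fitted together. Replicate libraries differed by more than sampling noise. Nothing says that they came from separate cultures of flies, so p-values measure the spread between samples, which may be technical. Pooled testes and counts without molecular identifiers limit the precision further. Named transcripts are the 2 called members with the largest rise and the 2 with the largest fall in set 2 footprints, with at least 10 counts in each library, the 2 highest ratios and those at the limit.

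Alternatives were DESeq2 1.42.0, DESeq2 size factors in edgeR, no low-count filter, a replicate block, leaving out each replicate, members chosen at an RNA level of 50 CPM, the 100 highest members and no dropping of near-equal transcripts. A crossed block and 1 member per shared profile were chosen after seeing the data. Whether equal numbers pair samples is not given by the labels.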

Additional observations from a re-analysis of the deposited data

Results flagged for a closer look

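Footprints of FBtr0300942 moved in opposite directions in testis and body. All knockout libraries of set 2 testis were below both WT libraries, and all body libraries of KO1 and KO2 were above both WT libraries. The log2 change in set 2 testis minus that in body was -7.32 with KO1 and -8.87 with KO2. The difference itself was not tested. WT footprints were 133 and 137 CPM in set 2 testis and 8.13 and 8.05 CPM in body, and the line of the set 2 knockout is not given by the labels.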

How the results depend on the processing

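The alternatives gave 191 values within 1.5 times the count, or within the spread, of the value reported, and 44 outside it. For the 100 highest members, counts were compared as a share of the members tested. The set 2 footprint changes of FBtr0300942, FBtr0078004, FBtr0089645 and FBtr0339240 kept their direction under the alternatives run. Depth limits the RNA-seq of set 2 and body most, where most members had under 10 counts. Counts of members by edgeR's quasi-likelihood test are given as higher and lower, with the cause of each shift not tested. With no low-count filter, 1 was lower in the set 2 knockout ratio, 35 in KO1 body footprints and 30 in KO2. The DESeq2 Wald test gave 5 lower in KO1, 8 in KO2 and 2 in set 2 RNA-seq. Members chosen at 50 CPM of RNA gave 1 lower for the set 1 knockout ratio, 0 for set 2 WT, 1 for set 2 knockout and 2 for body, 21 lower in KO1, a median set 1 footprint change of -0.32 and a median length value of 300.5. The 100 highest members gave 1 lower of 97 tested for the body ratio, where the main fit gave 1 of 190. They gave 0 higher for set 2 RNA-seq and a median length value of 217.5. Without dropping near-equal transcripts the median length value was 288.5.

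With 1 replicate left out, a lone sample was assumed to vary like the others. Counts of members higher and lower then ranged from 161 to 192 and from 0 to 0 for the set 1 knockout ratio, from 172 to 181 and from 2 to 2 for set 2 WT, from 172 to 175 and from 1 to 4 for set 2 knockout, and from 96 to 167 and from 0 to 2 for WT body. Set 2 footprints gave 7 to 32 higher and 38 to 53 lower, set 2 RNA-seq 1 to 1 and 3 to 5, testis over body 97 to 104 and 72 to 76, KO1 0 to 7 and 3 to 39, and KO2 0 to 11 and 7 to 29.

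With the replicate number as a block, the counts higher and lower were 163 and 0 for the set 1 knockout ratio, 183 and 2 for set 2 WT, 179 and 3 for set 2 knockout and 163 and 1 for body. They were 19 and 50 for set 2 footprints, 1 and 4 for set 2 RNA-seq, 4 and 18 for KO1, 5 and 17 for KO2 and 101 and 76 for testis over body. Same-numbered samples had deviations that correlated at -0.66 for the set 1 knockout ratio and -0.28 for set 2 footprints, and between -0.03 and 0.14 elsewhere. A crossed block, added after seeing the data, called 195 higher and 0 lower in the first and 28 higher and 65 lower in the second.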
